A study of Mus musculus with 7 samples.

Results

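The 34 genes described here are interferon-stimulated genes, the genes that cells switch on when interferon reaches them. They were picked out of the files by gene name from a fixed list, itself drawn up with earlier results of these data known, and all 34 were found among the 24062 genes counted in whole mouse spleens. RNA sequencing had been done on total RNA of 3 mutant and 4 wild-type spleens, each a library of its own, from mice aged 2 to 3 months. The mutant spleens were enlarged and came from mice of the genotype Vav1-iCre;Brca1F22-24/F22-24. In these mice the Cre recombinase is driven by Vav1 regulatory sequence, which is active throughout the blood lineages, and removes exons 22 to 24 of Brca1, a homologous recombination gene, from blood cells. Cells of the spleen outside the blood lineages are largely outside the reach of this promoter. The wild-type spleens came from C57BL6 mice without these alleles, for which no strain background shared with the mutant is given. Genotype, Cre, spleen enlargement and strain background therefore cannot be told apart. The labels give each spleen a number and do not say whether the animals shared litters or days, and the p-values below rest on the spread among these 7 spleens alone.

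Interferons are secreted proteins that warn cells of viral infection. Type I interferons and interferon gamma bind separate receptor pairs on the cell surface, and the JAK kinases attached to those receptors phosphorylate STAT proteins. STAT2 and IRF9 are parts of the complex ISGF3, which binds the interferon-stimulated response element (ISRE) in promoters, whereas interferon gamma acts mainly through the gamma-activated site (GAS). The genes switched on encode sensors of viral nucleic acid, proteins that block viral replication, enzymes of the ubiquitin-like modifier ISG15, and chemokines. In a healthy spleen a low tonic level of interferon keeps many of these genes on, chiefly in macrophages, dendritic cells and lymphocytes.

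Most of these genes were lower in the mutant spleens. Of the 34 genes, 22 (64.7%) were lower in the mutant and 0 were higher by edgeR's quasi-likelihood test on the counts, at a Benjamini-Hochberg adjusted p under 0.05. Among all 15188 genes tested, 28.9% were lower and 28.5% were higher. The transcripts of 26 genes were lower in every mutant spleen than in every wild-type spleen, which held for 32.6% of all genes, and 0 genes showed the opposite, which held for 29.2%. The median log2 fold change, mutant minus wild type, was -2.01 over the 34 genes and -0.02 over all genes tested. It was negative for 33 of the 34 genes, Bst2 being the exception. All 34 genes passed the filter on low counts. These spleens are mixtures of cells, so fewer cells of an expressing type and less RNA per cell cannot be told apart.

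**Figure D1:**
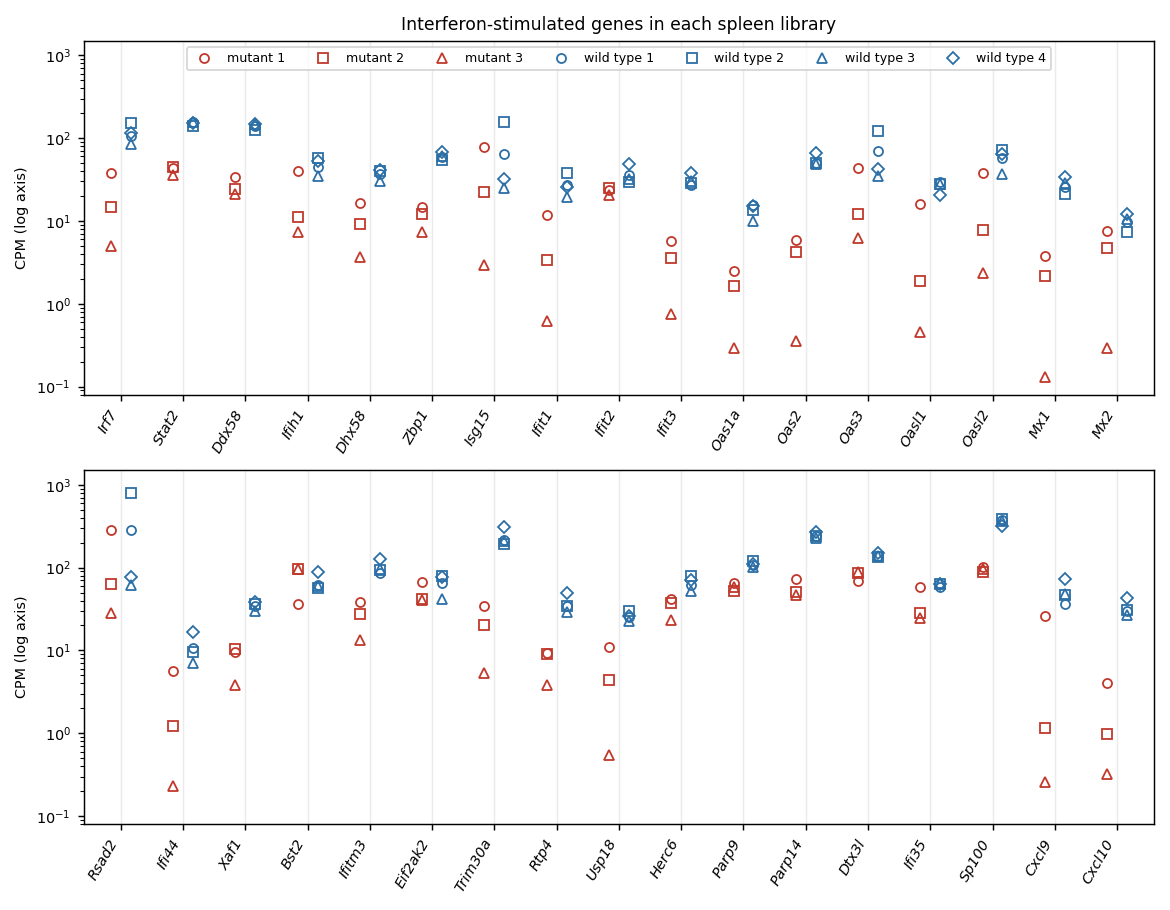
Level of each of the 34 interferon-stimulated genes in each spleen, in CPM on a log axis, with mutant spleens in red and wild-type spleens in blue and genes ordered by role. For 26 genes all 3 mutant symbols lie below the 4 wild-type symbols, and mutant spleen 3 is the lowest mutant for 30 genes.

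In the levels of these 34 genes, the mutant spleens differed from each other more than the wild-type spleens did. Counts of the 34 genes made up 0.128%, 0.0765% and 0.0555% of all counts in mutant spleens 1, 2 and 3, against 0.296%, 0.346%, 0.263% and 0.343% in wild-type spleens 1 to 4. All 3 mutant shares were below the lowest wild-type share. Taken gene by gene as log2 CPM (counts relative to library size, scaled between libraries by TMM) minus the wild-type mean, the median over the 34 genes was -1.16, -2.15 and -3.22 in mutant spleens 1, 2 and 3. In wild-type spleens 1 to 4 it was -0.02, -0.01, -0.14 and 0.16. Mutant spleen 1 had the highest mutant level for 29 genes and mutant spleen 3 the lowest for 30. For 12 genes the highest mutant spleen stood over 10 times above the lowest, which among wild-type spleens was the case for 1 gene, Rsad2. Spread was not counted in this way over all genes. Mutant spleen 1 lay below the whole wild-type range for 27 genes and inside it for 7, namely Ifih1, Isg15, Oas3, Oasl2, Mx2, Rsad2 and Eif2ak2. Mutant spleen 2 lay below it for 31 genes, and mutant spleen 3 for 33.

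**Figure D2:**
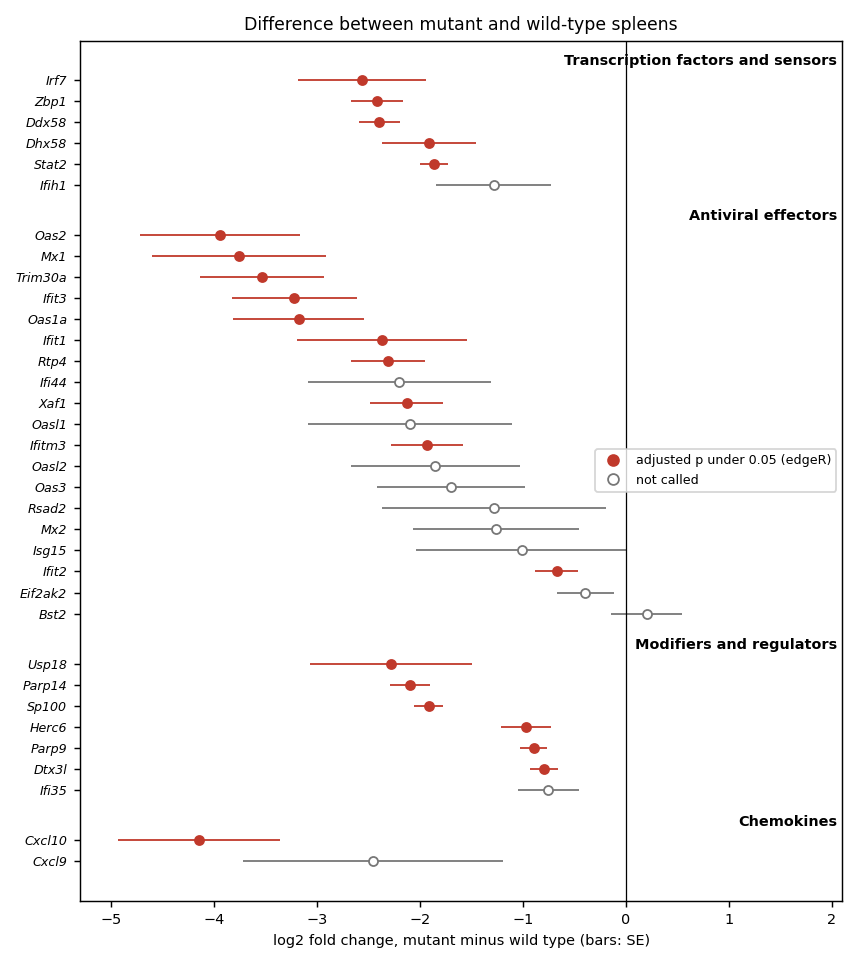
Log2 fold change of each gene, mutant minus wild type, with its standard error, coloured by whether the adjusted p was under 0.05. The values run from -4.14 for Cxcl10 to 0.20 for Bst2. The longest error bars belong to Cxcl9, Rsad2 and Isg15, whose mutant spleens differed widely. For Rsad2 and Isg15 the wild-type spleens did so as well.

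Total counts ranged from 30660980 to 51680976 in mutant spleens and from 26889712 to 63612532 in wild-type spleens, and no 2 replicates agreed within sampling noise. Brca1, the targeted gene, stood at 67.5, 47.1 and 42.7 CPM in mutant spleens against 46.2, 72.8, 15.7 and 20.2 CPM in wild-type spleens (log2 fold change 0.44, SE 0.51, adjusted p = 0.490). Gene-level counts are blind to a deletion of a few exons, and Brca1 therefore checks no label here.

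Promoter sequence can be searched for the letters of the element that ISGF3 binds. RefSeq promoter windows of build GRCm38.p6, which run from 250 bases before to 50 bases after a start site, were available for 25 of the 34 genes. They were searched on both strands for the core letters of the ISRE, GAAA, any 2 bases and GAAA again, which read TTTC, any 2 bases and TTTC on the opposite strand. Matches in 1 window may overlap. These letters were present in 14 of the 25 genes and in 15 of their 28 windows (53.6%), against 3.44% of 32851 windows of all genes. Genes that were lower in the mutant held them in 8 of 14 cases, and genes that were not called held them in 6 of 11. The GAS letters TTCNNNGAA were present in 21.4% of the 28 windows and in 8.3% of all windows. A match is a run of letters and not a shown binding site. The stretches below come from 5 genes that were lower in the mutant and then from 4 that were not called, so that the letters can be read in both. The matched letters are in capitals and each sequence is read 5′ to 3′ on the strand of its gene.
Stat2, chr10:128270251-128270310, plus strand: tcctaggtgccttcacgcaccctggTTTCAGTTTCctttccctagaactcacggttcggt
Ddx58, chr4:40239789-40239848, minus strand: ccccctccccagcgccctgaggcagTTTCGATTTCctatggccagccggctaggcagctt
Ifit3, chr19:34583348-34583441, plus strand: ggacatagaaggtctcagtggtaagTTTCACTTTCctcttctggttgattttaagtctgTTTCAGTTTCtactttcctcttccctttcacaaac
Oas1a, chr5:120907505-120907570, minus strand: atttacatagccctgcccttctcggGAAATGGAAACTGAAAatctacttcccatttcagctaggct
Cxcl10, chr5:92349068-92349127, minus strand: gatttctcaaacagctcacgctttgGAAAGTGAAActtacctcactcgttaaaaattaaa
Isg15, chr4:156200850-156200921, minus strand: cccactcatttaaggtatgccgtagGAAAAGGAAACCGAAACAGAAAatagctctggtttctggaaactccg
Rsad2, chr12:26456538-26456597, minus strand: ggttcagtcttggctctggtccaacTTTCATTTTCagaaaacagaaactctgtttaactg
Oas3, chr5:120777700-120777759, minus strand: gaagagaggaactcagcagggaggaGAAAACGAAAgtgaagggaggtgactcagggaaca
Bst2, chr8:71537562-71537627, minus strand: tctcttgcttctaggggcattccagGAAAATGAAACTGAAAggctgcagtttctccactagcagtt

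The Isg15 stretch holds 3 overlapping matches, the Oas1a and Bst2 stretches 2 overlapping matches each, and the Ifit3 stretch 2 separate ones. In Ddx58 the match begins at base 3, counting the start site as base 1, whereas in Stat2 it begins 222 bases before it. Genes with the ISRE letters among the stretches printed above ranged from Cxcl10, at a log2 fold change of -4.14, to Bst2, at 0.20.

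How many of the 34 genes were called depended on the test. DESeq2 called 28 of the 34 genes lower, against 27.6% of all genes, and limma-voom called 28, against 30.9%. With limma on the deposited CPM plus 1 or plus 0.1, 29 genes were lower, against 30.8% and 30.9% of all genes. An adjusted p under 0.01 was reached by 18 genes that were lower, against 19.3% of all genes. Scaling by library size alone gave 23 lower and 0 higher, against 33.7% lower and 20.8% higher among all genes. Without mutant spleen 1, in which most of the genes were highest among the mutants, 28 were lower and 1 was higher, against 31.4% and 32.7% of all genes. Ifih1, Oas3, Oasl1, Oasl2, Ifi44, Ifi35 and Cxcl9 gained a call there, and in no fit that left out another single spleen. Of the 22 genes that were lower with all 7 spleens, 19 were lower whichever single spleen was left out, and the other 3 were Ifit1, Ifit2 and Usp18. With the replicate number as a block 22 genes were lower, against 20.7% of all genes.

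Transcription factors and sensors formed the first group by role, and 5 of its 6 genes were lower in the mutant. This was 83.3%, against 28.9% of all genes. Irf7, the factor that amplifies type I interferon production, stood at 37.6, 14.9 and 5.04 CPM in the mutant spleens, against 106, 150, 85.6 and 114 CPM in wild type (log2 fold change -2.56, SE 0.62, adjusted p = 0.00926). The groups did not overlap, and mutant spleen 1 held 7.46 times the level of mutant spleen 3. Stat2, the STAT protein of ISGF3, had 43.6, 44.5 and 35.9 CPM in the mutant and 156, 141, 154 and 150 CPM in wild type. Its 3 mutant spleens were close together and all stood well below wild type (log2 fold change -1.86, SE 0.13, adjusted p = 0.000154). Ddx58 encodes RIG-I, the cytosolic sensor of short viral RNA, and counted 33.98, 24.6 and 21.0 CPM in the mutant, against 139, 124, 149 and 147 CPM in wild type. The log2 fold change was -2.39 (SE 0.20, adjusted p = 0.000190), again with tight groups. Dhx58, which encodes the regulatory helicase LGP2, was at 16.4, 9.16 and 3.68 CPM in the mutant against 36.7, 39.5, 30.3 and 40.9 CPM in wild type (log2 fold change -1.91, adjusted p = 0.00860). Zbp1, a sensor of Z-form nucleic acid, was at 14.8, 12.1 and 7.32 CPM in the mutant against 59.8, 55.0, 60.4 and 68.8 CPM in wild type (log2 fold change -2.42, adjusted p = 0.000362). Ifih1, which encodes the long-RNA sensor MDA5, was the member of this group that was not called. Its levels were 39.8, 11.1 and 7.29 CPM in the mutant against 45.2, 57.8, 34.6 and 52.3 CPM in wild type, so that mutant spleen 1 fell inside the wild-type range (log2 fold change -1.29, SE 0.56, adjusted p = 0.0818). Without mutant spleen 1 it was -2.28, with an adjusted p of 0.00107.

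Antiviral effectors were divided, with 10 of 19 genes (52.6%) lower in the mutant, against 28.9% of all genes. The OAS enzymes make the 2′-5′ oligoadenylate that activates RNase L. Oas2 was at 5.95, 4.19 and 0.358 CPM in the mutant against 50.4, 50.1, 49.4 and 66.4 CPM in wild type, with a log2 fold change of -3.94 (adjusted p = 0.00385, SE 0.78). Oas1a was at 2.51, 1.66 and 0.293 CPM in the mutant against 15.7, 13.5, 10.1 and 15.2 CPM in wild type (log2 fold change -3.18, adjusted p = 0.00405). Both transcripts were far below wild type in all 3 mutant spleens, with 11 counts of Oas2 and 9 of Oas1a in mutant spleen 3. Oas3 did not pass the test, at 43.3, 12.1 and 6.18 CPM in the mutant against 69.0, 121, 34.6 and 42.4 CPM in wild type (log2 fold change -1.70, SE 0.72, adjusted p = 0.0766). Here mutant spleen 1 overlapped wild-type spleens 3 and 4. Of the OAS-like proteins, Oasl1, which limits Irf7 translation in mouse, was at 16.1, 1.87 and 0.456 CPM in the mutant and 29.9, 27.8, 27.6 and 20.3 CPM in wild type. The groups did not overlap, yet the mutant spread left it uncalled (log2 fold change -2.09, SE 0.99, adjusted p = 0.104). Oasl2 was at 38.02, 7.71 and 2.34 CPM in the mutant and 58.3, 72.7, 37.3 and 63.9 CPM in wild type, with mutant spleen 1 just inside the wild-type range (log2 fold change -1.85, adjusted p = 0.0864). Without mutant spleen 1, Oas3, Oasl1 and Oasl2 were all called lower, with adjusted p = 0.00920, 0.00102 and 0.00253. Leaving out any other single spleen left these genes uncalled.

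The IFIT proteins bind viral RNA ends and block its translation. Ifit3 was at 5.69, 3.52 and 0.748 CPM in the mutant and 27.5, 28.7, 30.1 and 38.2 CPM in wild type (log2 fold change -3.22, SE 0.60, adjusted p = 0.00306). Ifit1 was at 11.8, 3.42 and 0.618 CPM in the mutant and 26.9, 38.3, 19.3 and 25.8 CPM in wild type (log2 fold change -2.37, SE 0.82, adjusted p = 0.0390). Ifit2 was at 23.6, 24.7 and 20.3 CPM in the mutant and 35.6, 29.3, 32.3 and 48.7 CPM in wild type, with a smaller log2 fold change (-0.67, SE 0.21, adjusted p = 0.0241). All 3 genes were lower in the mutant, with no overlap between groups, but the last 2 calls were close to the threshold. Ifit1 lost its call without mutant spleen 2 and without each wild-type spleen, with adjusted p between 0.0563 and 0.121. Ifit2 lost it without mutant spleen 1, mutant spleen 3 or wild-type spleen 1, with adjusted p between 0.0531 and 0.0630. The 3 Ifit genes lie inside the spans that the deposited annotation lists for Snora19, Mir3084 and Mir3084-2 on the opposite strand.

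Mx1 encodes a dynamin-like GTPase against influenza viruses, and common laboratory mice such as C57BL6 carry a defective allele of it. Its transcript was at 3.75, 2.15 and 0.130 CPM in the mutant and 25.9, 21.2, 29.0 and 33.9 CPM in wild type (log2 fold change -3.76, SE 0.84, adjusted p = 0.00681). Mx2, its neighbour in the same family, was at 7.46, 4.72 and 0.293 CPM in the mutant and 9.68, 7.44, 10.6 and 12.2 CPM in wild type. Mutant spleen 1 reached the low end of wild type, and Mx2 was not called (log2 fold change -1.26, SE 0.80, adjusted p = 0.212). Trim30a, an E3 ligase family gene that restrains Toll-like receptor signalling, had one of the larger differences. It stood at 34.5, 20.3 and 5.27 CPM in the mutant against 213, 195, 210 and 309 CPM in wild type (log2 fold change -3.53, SE 0.60, adjusted p = 0.00203). Rtp4, a receptor chaperone that also inhibits viral replication, was at 9.25, 9.16 and 3.87 CPM in the mutant against 34.8, 34.5, 28.7 and 49.6 CPM in wild type (log2 fold change -2.31, adjusted p = 0.00135). Xaf1, which promotes apoptosis, was at 9.66, 10.5 and 3.77 CPM in the mutant against 34.8, 36.1, 30.0 and 38.7 CPM in wild type (log2 fold change -2.13, adjusted p = 0.00178). These 3 genes were lower in each mutant spleen than in any wild-type spleen. Ifitm3, which blocks fusion of viruses in endosomes, was at 38.1, 27.3 and 13.2 CPM in the mutant against 85.2, 92.4, 96.3 and 127 CPM in wild type. The groups were clearly apart (log2 fold change -1.93, SE 0.35, adjusted p = 0.00271). Ifi44, an interferon-induced cytoplasmic protein, was at 5.58, 1.23 and 0.228 CPM in the mutant and 10.6, 9.69, 7.01 and 16.5 CPM in wild type, without overlap and without a call (log2 fold change -2.20, SE 0.89, adjusted p = 0.0655). It was called lower without mutant spleen 1 (adjusted p = 0.00461).

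Bst2 and Eif2ak2 were the effectors closest to wild type. Bst2 encodes tetherin, which holds budding virus at the cell surface. It was at 36.1, 96.5 and 96.6 CPM in the mutant and 60.9, 56.3, 59.7 and 88.9 CPM in wild type (log2 fold change 0.20, SE 0.35, adjusted p = 0.647). Mutant spleen 1 stood below all wild-type spleens and mutant spleens 2 and 3 above all of them. Without mutant spleen 1, Bst2 was called higher (log2 fold change 0.62, adjusted p = 0.0337). Scaled by library size alone, its log2 fold change was -0.077. Eif2ak2 encodes the kinase PKR, which halts translation on double-stranded RNA, and was at 67.9, 41.9 and 40.4 CPM in the mutant and 65.6, 79.1, 41.9 and 76.7 CPM in wild type. The groups overlapped (log2 fold change -0.39, SE 0.28, adjusted p = 0.255).

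Modifiers and regulators were lower in the mutant in 6 of 7 cases (85.7%, against 28.9% of all genes), with smaller differences for several. Sp100, a component of PML nuclear bodies, was at 103, 89.3 and 95.4 CPM in the mutant and 374, 385, 367 and 320 CPM in wild type (log2 fold change -1.91, SE 0.14, adjusted p = 0.000154). Parp14, a mono-ADP-ribosyltransferase, was at 73.2, 51.0 and 46.5 CPM in the mutant and 242, 238, 227 and 266 CPM in wild type (log2 fold change -2.10, SE 0.19, adjusted p = 0.000257). Both had little spread within either group. Parp9 and Dtx3l encode partners in one ubiquitin ligase complex. Parp9 was at 65.9, 52.8 and 58.1 CPM in the mutant and 107, 119, 101 and 111 CPM in wild type (log2 fold change -0.90, SE 0.13, adjusted p = 0.00108). Dtx3l was at 68.3, 85.7 and 88.5 CPM in the mutant and 138, 135, 139 and 151 CPM in wild type (log2 fold change -0.80, SE 0.14, adjusted p = 0.00204). The pair lie head to head on opposite strands and share 558 bases, so reads there may belong to either gene. Herc6, the mouse ligase that attaches ISG15 to proteins, was at 41.4, 37.5 and 23.0 CPM in the mutant and 61.3, 80.1, 52.3 and 71.7 CPM in wild type (log2 fold change -0.97, SE 0.24, adjusted p = 0.0109). Usp18, the protease that removes ISG15 and dampens the type I receptor, was at 11.1, 4.33 and 0.553 CPM in the mutant and 25.4, 29.9, 22.6 and 26.3 CPM in wild type. It was lower in every mutant spleen (log2 fold change -2.28, SE 0.79, adjusted p = 0.0382), but without mutant spleen 2 or any 1 wild-type spleen the adjusted p lay between 0.0634 and 0.113. Ifi35, which pairs with NMI, was at 58.9, 28.0 and 24.7 CPM in the mutant and 59.0, 63.6, 65.8 and 62.8 CPM in wild type. Mutant spleen 1 was nearly level with wild-type spleen 1, the lowest of its group, and the gene was not called (log2 fold change -0.75, SE 0.30, adjusted p = 0.0604). Without that spleen it was called lower (log2 fold change -1.17, adjusted p = 0.000445).

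Both chemokines attract T cells and NK cells through the receptor CXCR3. Cxcl10 was at 4.08, 0.986 and 0.325 CPM in the mutant and 29.9, 30.4, 26.6 and 43.2 CPM in wild type. It had the largest difference of the 34 genes (log2 fold change -4.14, SE 0.79, adjusted p = 0.00323) and lies wholly inside the span of Art3 on the opposite strand. Cxcl9 was at 26.2, 1.16 and 0.260 CPM in the mutant and 36.2, 46.7, 47.5 and 73.8 CPM in wild type. Mutant spleen 1 stood over 100 times above mutant spleen 3, and Cxcl9 was not called although the groups did not overlap (log2 fold change -2.46, SE 1.26, adjusted p = 0.131). Leaving out mutant spleen 1 gave a log2 fold change of -6.08 with an adjusted p of 0.000545.

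Isg15 and Rsad2 varied widely among the wild-type spleens themselves, with 6.31 and 12.9 times between the lowest and the highest. Isg15, the ubiquitin-like modifier itself, was at 77.4, 22.2 and 2.90 CPM in the mutant and 64.9, 155, 24.6 and 31.7 CPM in wild type (log2 fold change -1.01, SE 1.02, adjusted p = 0.424). Rsad2 encodes viperin, which makes a chain-terminating nucleotide, and was at 284, 63.7 and 28.2 CPM in the mutant and 281, 801, 62.0 and 76.8 CPM in wild type (log2 fold change -1.28, SE 1.08, adjusted p = 0.341). The spleens with the most Isg15, Rsad2 and Oas3 were mutant spleen 1 within the mutant group and wild-type spleens 1 and 2 within the wild-type group. The summed level of 6 erythroid markers, none of which was called, was 8484, 1568 and 2075 CPM in mutant spleens 1, 2 and 3, against 3788, 8641, 613 and 685 CPM in wild-type spleens 1 to 4. The erythroid sum was thus highest in the same spleens as these 3 genes, which were singled out after their values were seen. Between mutant spleens 2 and 3 it ran the other way, being higher in spleen 3 while all 3 genes were lower there. The part of erythroid content in the result was not tested. With wild-type spleens 1 and 2 left out, a comparison added after the data were seen, the log2 fold change of Isg15 was 0.28 (adjusted p = 0.858) and that of Rsad2 was 0.85 (adjusted p = 0.481). That comparison called 18 of the 34 genes lower, against 19.5% of all genes, and Ifit1, Ifit2, Usp18 and Herc6 were no longer among them.

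**Figure D3:**
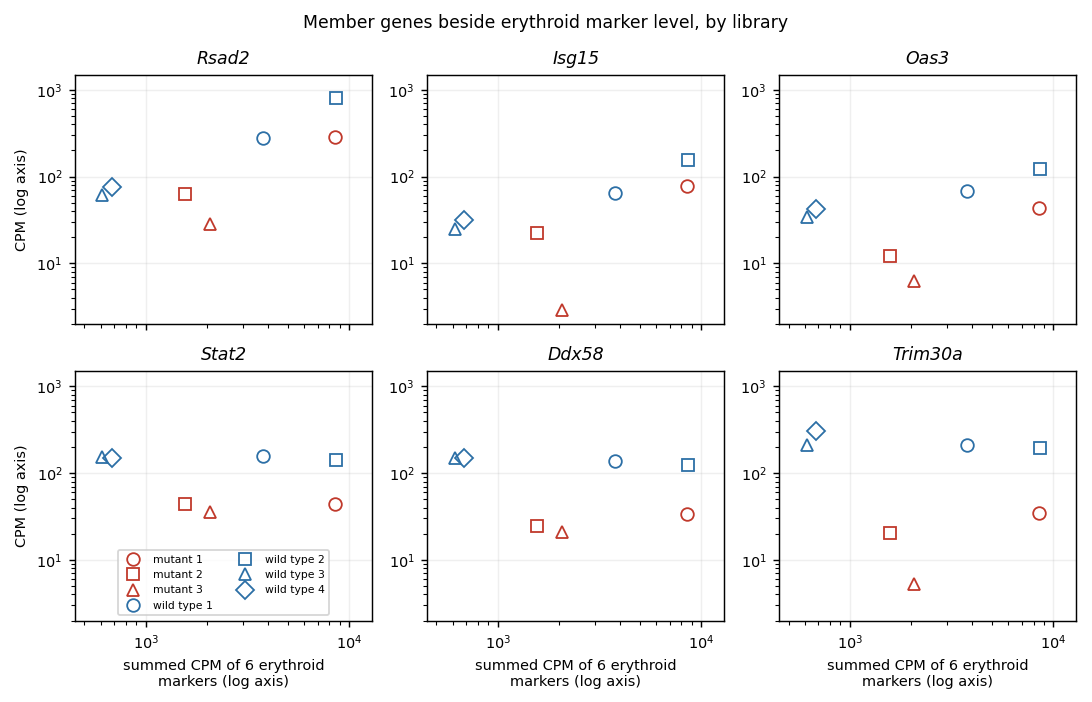
Level of 6 genes in each spleen (CPM, log axis) against the summed CPM of 6 erythroid markers (log axis), with mutant spleens in red and wild-type spleens in blue. Rsad2, Isg15 and Oas3 in the upper row are highest in wild-type spleen 2, whose erythroid sum is 8641 CPM. Stat2, Ddx58 and Trim30a in the lower row, chosen for display from the genes already called, are lower in the 3 mutant spleens than in the 4 wild-type spleens.

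Levels between genes can be compared per exon length, here as mean CPM per kb of exon from the GENCODE M21 annotation. In the mutant Bst2 was highest at 84.6 CPM per kb, and Ifitm3 stood at 38.6 CPM per kb. In wild type Ifitm3 was highest at 148 CPM per kb, and Bst2 stood at 73.6 CPM per kb. Isg15 averaged 45.2 CPM per kb in the mutant and 91.5 CPM per kb in wild type, but most of these means came from mutant spleen 1 and wild-type spleen 2, so its place in the order is not read. Ifi44 was lowest in both groups, at 0.383 CPM per kb in the mutant and 1.78 CPM per kb in wild type.

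Several genes have related family copies, among them Ifit1, Ifit3, Oas1a, Trim30a and Ifitm3. Where copies are alike the counting could have split their reads, and how alike they are was not measured. Of 13 family copies tested, 9 (69.2%) were lower in the mutant and 0 were higher, against 28.9% and 28.5% of all genes. Their median log2 fold change was -1.98. Trim30d was at 7.03, 5.11 and 1.399 CPM in the mutant against 66.7, 63.1, 60.3 and 99.1 CPM in wild type, for which the log2 fold change was -4.00 (SE 0.54, adjusted p = 0.000808). Trim30b had a log2 fold change of -4.77, Oas1b of -1.96 and Oas1c of -1.42, and all 3 were called. The copies named here were picked as those of smallest p in the list, so they do not stand for the rest of it. Of the 13 copies, 4 were not called, and the highest log2 fold change was 0.38.

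Genes upstream in the pathway were examined next, beginning with the ligands. Of 20 interferon genes, Ifng alone had enough counts to be tested, with 7, 0 and 0 counts in the mutant and 47, 32, 65 and 96 counts in wild type (adjusted p = 0.00283). It passed the filter on low counts through the wild-type spleens alone. The other 19 ligand genes, which include the type I interferons, had under 10 counts over all 7 libraries. In the mutant 18 of the 20 ligands had 0 counts, and in wild type 16 had. A count of 0 allows up to 0.0279 CPM over the mutant group and up to 0.0170 CPM over the wild-type group, so the ligands other than Ifng could not be compared at this depth.

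Receptor and signalling genes were lower in the mutant in 9 of 11 cases (81.8%), against 28.9% of all genes. Their median log2 fold change was -1.42. Irf9, the DNA-binding protein of ISGF3, was at 80.7, 35.1 and 29.5 CPM in the mutant and 144, 174, 134 and 139 CPM in wild type (log2 fold change -1.61, adjusted p = 0.00619). Its groups did not overlap, and mutant spleen 1 was again the highest of the mutants. Of the type I receptor, Ifnar1 was lower (log2 fold change -0.86, adjusted p = 0.00188), and Ifnar2 was not called (log2 fold change -0.33, adjusted p = 0.0653). Both chains of the interferon gamma receptor were lower, with log2 fold changes of -1.06 for Ifngr1 and -1.53 for Ifngr2. So were Ifnlr1 (-2.68) and Il10rb (-1.77), the chains of the type III receptor. Among the kinases, Jak2 (-1.26) and Tyk2 (-1.42) were lower, and Jak1 was not called (log2 fold change -0.62, adjusted p = 0.0672). Inhibitors of the pathway were mixed, with 2 of 5 higher and 2 lower. Each is 40%, against 28.5% higher and 28.9% lower among all genes. Socs1, which blocks JAK kinases, was at 8.57, 7.08 and 6.93 CPM in the mutant and 4.56, 4.37, 4.11 and 5.396 CPM in wild type (log2 fold change 0.71, SE 0.21, adjusted p = 0.0236). The phosphatase gene Ptpn2 was also higher (log2 fold change 0.48), whereas Ptpn6 (-0.73) and Pias1 (-0.41) were lower.

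Nucleic acid sensing genes upstream of interferon were lower in 7 of 13 cases and higher in 1. These are 53.8% and 7.69%, against 28.9% and 28.5% of all genes. The endosomal receptors Tlr3 (log2 fold change -2.81) and Tlr9 (-4.89) were lower, as were Trim25 (-1.22) and Rnf135 (-1.71), ubiquitin ligases that act on RIG-I. Mb21d1 encodes the DNA sensor cGAS and was the gene that was higher, at 12.7, 27.1 and 29.5 CPM in the mutant against 8.87, 8.25, 9.95 and 10.8 CPM in wild type (log2 fold change 1.29, SE 0.30, adjusted p = 0.00757). GTPases induced mainly by interferon gamma were lower in 16 of 17 cases (94.1%), with a median log2 fold change of -2.16. Examples are Irgm2 (-2.41), Igtp (-1.28), Ifi47 (-1.21) and Gbp9 (-2.96), which act on the vacuoles of intracellular pathogens. A list of 40 further interferon-stimulated genes had 27 (67.5%) lower and 2 (5%) higher in the mutant. Its median log2 fold change was -1.38. Lower examples are Samd9l (-3.54), Slfn8 (-3.29), Phf11b (-3.20) and Shisa5 (-2.38). The 2 higher genes were Lgals9, which encodes galectin-9 (log2 fold change 1.43), and Pnpt1, which encodes a mitochondrial RNA exonuclease (1.01).

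**Figure D4:**
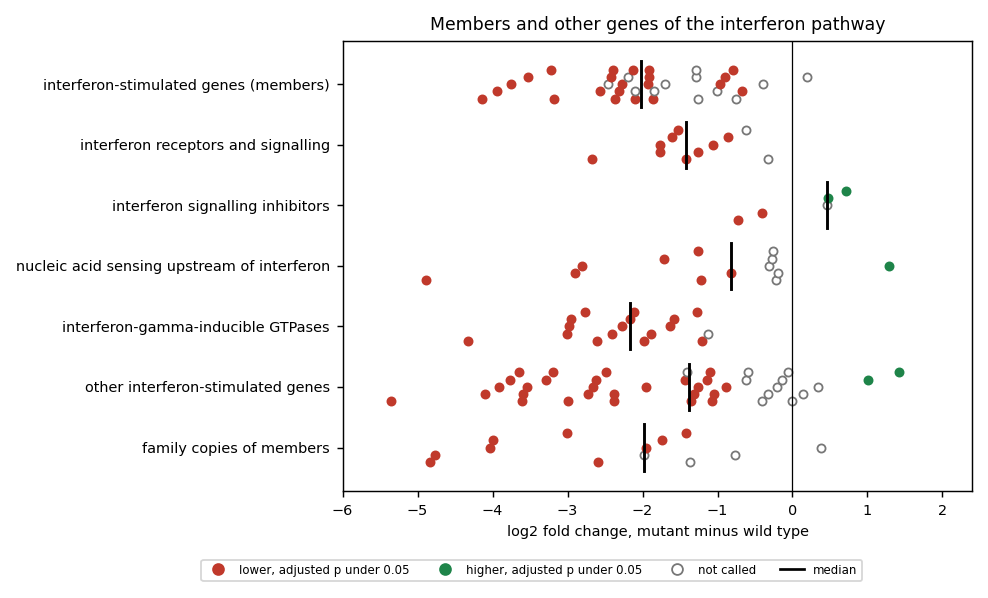
Log2 fold change, mutant minus wild type, of every tested gene in the members' list and 6 other lists of the interferon pathway, with the median of each list as a bar. Filled symbols passed an adjusted p of 0.05, and the inhibitors are the list whose median lies above 0.

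Markers of several cell types of the spleen also differed between the groups. The counts of markers below stand beside 28.9% lower and 28.5% higher among all genes tested. Of 9 conventional dendritic cell markers, 8 were lower in the mutant, with a summed level of 4.91 to 45.0 CPM against 228 to 344 CPM in wild type. Clec4a4 among them had 0 counts in mutant spleen 3. Monocyte markers were lower in 7 of 11 cases, with sums of 368 to 1104 CPM in the mutant and 1871 to 2425 CPM in wild type, and of the highest mutant sum Ace made up 1003 CPM. Macrophage markers were lower in 5 of 14 cases (35.7%, near the 28.9% of all genes), with sums of 497 to 2680 CPM in the mutant and 3231 to 3637 CPM in wild type. All 14 had a negative log2 fold change. Of them, 10 were lower in every mutant spleen than in every wild-type spleen, which held for 32.6% of all genes. Mutant spleen 1 had the highest mutant sum of conventional dendritic cell and macrophage markers and mutant spleen 3 the lowest, which is the order of the interferon-stimulated genes as well. By the median over each list, monocyte, neutrophil, NK cell, and stroma and endothelium markers ran in that order too. By summed level these lists did not. Mutant spleen 3 had the highest mutant sum of monocyte and NK cell markers, and mutant spleen 2 that of the other lists just named. Mature B cell markers followed the order by neither measure, with medians of -5.40, -4.49 and -8.03 in mutant spleens 1, 2 and 3. B cell markers were lower in 10 of 10 cases, with sums of 30.6 to 236 CPM in the mutant and 4152 to 5602 CPM in wild type. NK cell markers were lower in 7 of 8 cases (4.47 to 16.3 CPM in the mutant, 171 to 226 CPM in wild type), and Ncr1 and Klra8 had 0 counts in mutant spleen 3. Plasmacytoid dendritic cell markers were lower in 3 of 5 cases, and 1 marker that was not called had a positive log2 fold change of 1.65. Their sums ran in the opposite order among the mutants, at 4.43, 7.57 and 26.2 CPM in mutant spleens 1, 2 and 3. In wild type these sums were 59.1 to 206 CPM. By the median over the list, mutant spleens 1 and 2 were nearly level, at -4.72 and -4.67. Neutrophil markers were lower in 4 of 10 cases, or 40%, against the 28.9% of all genes. Their sums were 21.6 to 620 CPM in the mutant and 686 to 1713 CPM in wild type. All 10 neutrophil markers had a negative log2 fold change, and 6 were lower without overlap between groups. Stroma and endothelium markers were lower in 7 of 12 cases, with 1 higher. By contrast, 5 of 6 T cell markers, 8 of 8 immature T cell markers and 6 of 8 markers of dividing cells were higher in the mutant. Immature T cell markers summed to 1344 to 3391 CPM in the mutant and 127 to 149 CPM in wild type. The part of these cell types in the levels of the interferon-stimulated genes was not tested.

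**Figure D5:**
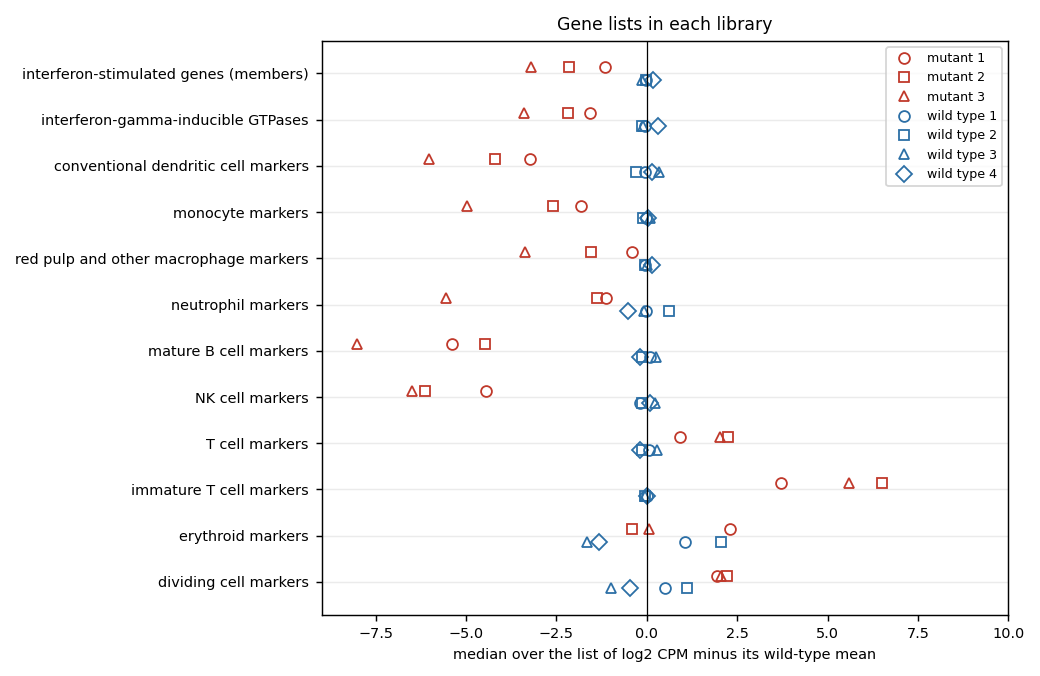
Median over each gene list of log2 CPM minus its wild-type mean, for each spleen, with mutant spleens in red and wild-type spleens in blue. The interferon-stimulated genes stand at -1.16, -2.15 and -3.22 in mutant spleens 1, 2 and 3. The same order from high to low holds for the interferon-gamma-inducible GTPases and for conventional dendritic cell, monocyte, macrophage, neutrophil and NK cell markers. It does not hold for mature B cell markers.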

How the data were processed

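Per the submitters' processing notes, reads were handled with bcl2fastq (2.17.1.14), TopHat2 (2.0.12), featureCounts of the Subread package (1.4.6) and edgeR on build mm10. Order, settings and use of strand were not given in the sources used here. Raw counts for each gene and a CPM table were deposited by the authors. The deposited CPM have an other scale than plain CPM: they equal counts over TMM effective library sizes (largest relative deviation 5.09e-15), and 4455 genes without a count have none. Here raw counts were tested with edgeR 4.0.16 (R 4.3.3): filterByExpr, TMM, group as the only term, all 7 libraries, Benjamini-Hochberg over 15188 genes. SE is the log2 fold change over the square root of F. CPM in the text use these TMM factors. The test was checked on simulated data. Floors for 0 counts take 3 counts and cover counting error only.

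The members and lists were chosen with earlier results of these data known. Named were all 34 genes, from each list up to 4 genes of smallest p and those called against their list's direction, and every ligand and receptor tested, except that 1 signalling gene is not reported here. Lists are described by counts and medians. Alternatives were other scalings, filters and thresholds, DESeq2 1.42.0, limma-voom and limma 3.58.1 on the log2 deposited CPM with 1 or 0.1 added, the replicate number as a block, and each library left out. Motifs were searched in RefSeq promoters of GRCm38.p6, the build of mm10. No column was left unused.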

Additional observations from a re-analysis of the deposited data

Results flagged for a closer look

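Of 142 values checked among the 4 wild-type spleens, 9 had 1 spleen far from the other 3 by Dixon's criterion, and chance flags about 1 in 20. Wild-type spleen 4 stood above its group for Oas2 at 66.4 CPM, Bst2 at 88.9 CPM and Trim30a at 309 CPM among the 34 genes. The same spleen stood apart for Trim30d at 99.1 CPM, for the macrophage marker Siglec1 at 109 CPM, and for the summed level of the interferon-gamma-inducible GTPases at 1488 CPM. Wild-type spleen 2 stood apart for Klk1 at 146 CPM, for the summed plasmacytoid dendritic cell markers at 206 CPM, most of which is Klk1, and for the neutrophil marker Mmp9 at 40.0 CPM. Groups of 3, such as the mutant spleens, were not checked.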

How the results depend on the processing

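Between 18 and 29 of the 34 genes were lower over 19 alternatives, and the median log2 fold change lay between -2.48 and -1.71. Leaving out 1 spleen gave 19 to 28 lower and 0 to 1 higher, the 1 being Bst2 without mutant spleen 1, while 24.6% to 31.4% of all genes were lower. Bst2 ranged from -0.026 to 0.62 over these fits and was -0.077 by library size alone, a scaling that moved the median of all genes to -0.26. Without wild-type spleens 1 and 2, added after the data were seen, Isg15 was 0.28 and Rsad2 was 0.85. With a replicate block 22 genes were lower, Oas3 and Oasl2 gaining and Ifit2 and Usp18 losing the call. Whether the numbers pair the spleens is not given. Deviations of same-numbered spleens correlated at 0.06, -0.19 and 0.11, which with so few spleens cannot decide it. Over the 34 genes and 19 alternatives, 582 values kept direction and call, 37 gained a call, 23 lost one and 4 turned direction. Under 10 counts lay behind the values of Oas1a, Mx1, Mx2, Ifi44 and Cxcl9 in mutant spleen 3, the lowest being 4 counts for Mx1.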
